A study of Caenorhabditis elegans with 6 samples.

Results

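The loci described here are 6 Caenorhabditis elegans genes and pseudogenes taken as targets of the ERGO-1 small RNA pathway. They are T08B6.2, Y17D7C.3, Y17D7B.4, W04B5.2, K02E2.6 and E01G4.5. Their status as targets comes from general knowledge and was not checked against a published list. They were taken by exact name, and all 6 were found among the 46761 features that each table lists. The worms were gravid adults of strain BCN1050 in the N2 background, which carries the unc-119(ed3) mutation and the integrated transgene crgIs1002, holding a daf-21 promoter driving mCherry with the unc-54 3′ UTR and a functional unc-119. High and Low worms shared this genotype and differed in the temperature at which their P0 grandparents were kept, 25 °C for High and 16 °C for Low. All P0 worms went to 20 °C as L4 larvae at 12 per plate, and the F1 was bleached after 4.5 days. The F2 grew from L1 for 72 hours at 20 °C at 1000 worms per plate on OP50 bacteria, and RNA came from whole worms of many animals. There were 3 High and 3 Low libraries, and nothing in the labels ties a High replicate to the Low replicate of the same number.

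In the ERGO-1 pathway, 26G RNAs are primary small RNAs made in oocytes and embryos by the RNA-dependent RNA polymerase RRF-3 together with Dicer, and bound by the Argonaute ERGO-1. They guide the production of many more secondary 22G RNAs by other polymerases, which are loaded into WAGO Argonautes such as the nuclear Argonaute NRDE-3. Their targets in worms are known to include duplicated genes and pseudogenes. The 21U class is named after piRNAs, which are bound by PRG-1. The labels leave unstated how reads were assigned to the 3 classes, which strand was counted and how reads with several genomic matches were handled.

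Of the 6 loci, T08B6.2, Y17D7C.3 and W04B5.2 are pseudogenes and Y17D7B.4, K02E2.6 and E01G4.5 are protein-coding genes in the Ensembl annotation of assembly WBcel235. T08B6.2 lies on chromosome IV, W04B5.2 on chromosome III, E01G4.5 on chromosome II and the other 3 on chromosome V. The genome build of the tables is not named, so no coordinates are given. T08B6.2 overlaps 9 annotated piRNA genes and K02E2.6 overlaps 1 small non-coding RNA gene, K02E2.12, and reads of overlapping features could be shared. No other feature had the same 22G values as any of the 6 loci, in any of the 3 High and 3 Low libraries.

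The normalized count used here is a read count divided by the size factor of its library, and whole reads were recovered from it. Over all features the libraries held 1380170 to 2685999 reads of the 22G class, 18704 to 37706 of the 26G class and 37630 to 59648 of the 21U class. Low replicate 1 stood apart in the 26G class, with a normalized total of 57141 against 17491 to 25760 in the other 5 libraries. Its 21U total was also the highest, 59360 against 41430 to 45567, and its size factor of 0.660 was the lowest. In that library features annotated as ncRNA or rRNA took 84.8% of the 26G signal, against 64 to 69.7% in the others. Sums over features may count a read more than once, because several of the abundant ncRNA features have the same values. The part of Low replicate 1 in each 26G or 21U result was not tested beyond the values without it that are given below. Small RNA counts do not measure transcripts, so the labelled stage could not be checked against expressed markers. In whole worms, fewer embryos or oocytes per animal and less small RNA per cell cannot be told apart.

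**Figure D1:**
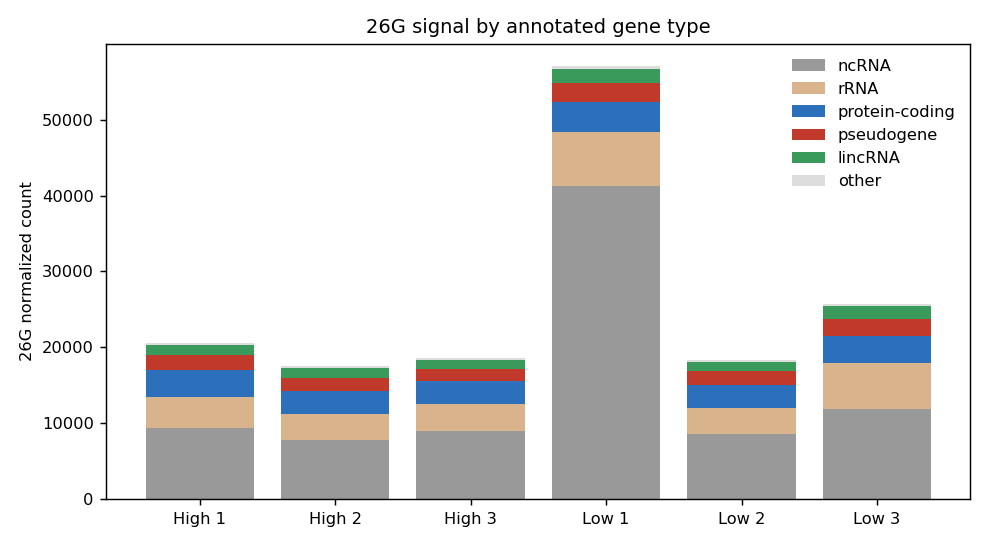
Stacked bars of 26G normalized counts per library (y axis) by annotated gene type, for High replicates 1 to 3 and Low replicates 1 to 3. The bar of Low replicate 1 reaches 57141, mostly ncRNA (41293), while its pseudogene and protein-coding parts (2543 and 3893) are the highest of the 6 libraries but closer to the others.

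The first comparison asks how 22G RNAs over these loci differed between High and Low. The loci were chosen with earlier results of these data known, so their 22G differences are given as a description and their count supports nothing about the pathway. At all 6 loci the 22G level of every High library lay below that of every Low library, which was so for 9.97% of the 9402 features tested. The level in High was 56.5% of that in Low at T08B6.2, the lowest percentage, and 85.7% at E01G4.5, the highest. By limma, 5 of the 6 passed an adjusted p under 0.05 as lower in High, where 2.66% of all tested features did, and 0 as higher, where 5.64% did. edgeR and DESeq2 on the recovered reads also called 5 each.

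Y17D7C.3, a pseudogene, had 22G levels of 1899, 1760 and 1663 normalized counts in the High libraries, given here and below in the order of replicates 1, 2 and 3, against 2866, 2432 and 2612 in the Low ones. The gap between the groups was wider than the range within either. The log2 difference was -0.57 ± 0.07 (SE, n = 3 per group; limma adjusted p = 0.000331), and the call held under all 16 alternative settings, with log2 differences from -0.63 to -0.51.

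T08B6.2, also a pseudogene, reached 56.2, 41.8 and 49.1 normalized counts in High libraries against 84.9, 88.6 and 86.8 in the Low group. It was the least abundant of the 6, with 412 22G reads over the 6 libraries. Its Low libraries lay close together and its High libraries spread more widely. The log2 difference was -0.82 ± 0.15 (SE; limma adjusted p = 0.00378), past the threshold in all 16 alternative settings.

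The protein-coding gene Y17D7B.4 stood at 1073, 1004 and 1071 normalized counts in High against 1252, 1396 and 1290 in Low. On the log2 scale this was -0.32 ± 0.06 (SE; adjusted p = 0.00778 by limma). Without High replicate 2 the adjusted p was 0.051, and in limma without a variance trend it was 0.165. The difference of this gene was smaller than that of Y17D7C.3 on the same chromosome, but the difference between the loci was not tested.

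W04B5.2, a pseudogene, stood at 699, 640 and 621 normalized counts in High against 749, 840 and 829 in Low (-0.30 ± 0.07, limma adjusted p = 0.0267). K02E2.6, a protein-coding gene, had 1366, 1224 and 1187 in High and 1455, 1541 and 1523 in Low (-0.26 ± 0.07, adjusted p = 0.0342). At both, High replicate 1 and Low replicate 1 were the closest libraries of the opposite groups. Both calls were lost under the same 6 of 16 alternative settings: with a replicate block (adjusted p of 0.0521 and 0.0514 by limma), without a variance trend (0.224 and 0.286), and when any 1 of 4 libraries was dropped. These were High replicate 2 (0.114 and 0.148), High replicate 3 (0.116 and 0.152), Low replicate 2 (0.121 and 0.128), and Low replicate 3 (0.0934 and 0.0975).

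E01G4.5, a protein-coding gene and the most abundant of the 6, reached 2890, 2734 and 2574 normalized counts in High against 3449, 2926 and 3186 in Low. The highest High library and the lowest Low library were close. The log2 difference was -0.22 ± 0.07 (SE) and did not pass (limma adjusted p = 0.101). It passed with equal totals per library (0.0439) and with a replicate block (0.0475).

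**Figure D2:**
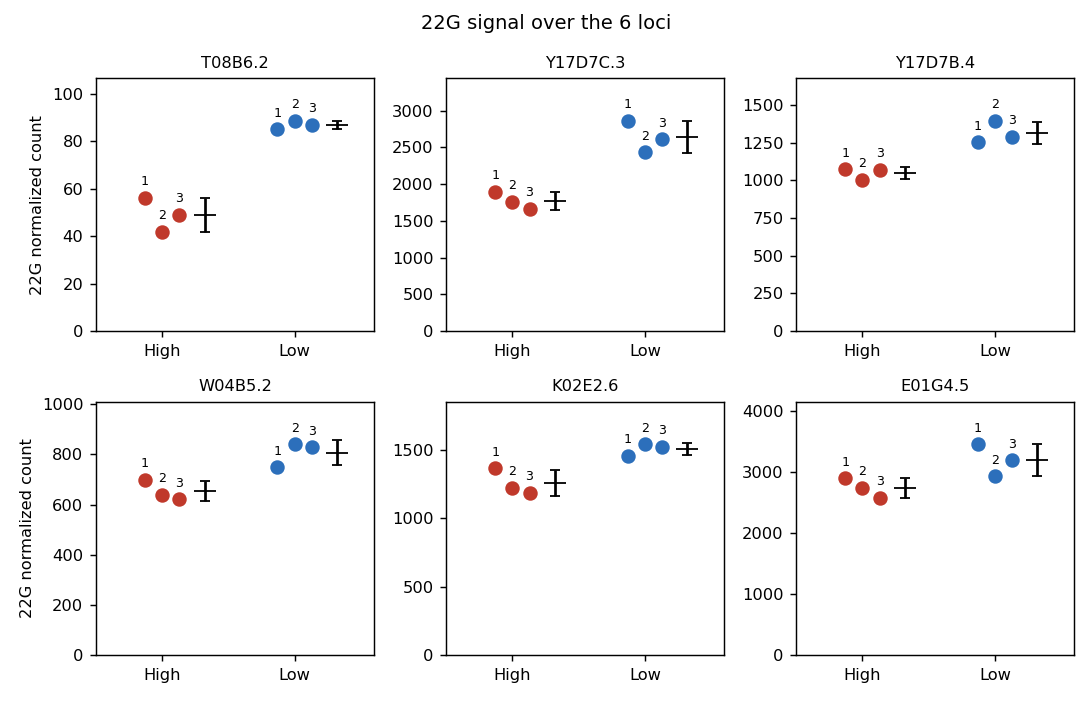
22G normalized counts (y axis, from 0) in the 3 High (red) and 3 Low (blue) libraries for each of the 6 loci; numbers beside points are replicate numbers, and black bars show the group mean and SD. In all 6 panels the red points lie below the blue ones, with the widest gap relative to level at T08B6.2 (49 ± 7.2 against 86.8 ± 1.88).

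Summed over the 6 loci, 22G signal was 7984, 7402 and 7166 normalized counts in High and 9855, 9224 and 9527 in Low. As a share of all 22G signal this was 0.361% ± 0.0143 in High and 0.464% ± 0.0121 in Low (SD, n = 3). E01G4.5 gave 31.7 to 36.9% of the sum in a library, Y17D7C.3 gave 23.2 to 29.1% and T08B6.2 gave at most 0.961%. Per kilobase of annotated exon, the mean 22G level was highest at Y17D7C.3 (2764 normalized counts per kb), then Y17D7B.4 (2624) and E01G4.5 (2168). It was 1249 per kb at K02E2.6, 863 at W04B5.2 and 71.6 at T08B6.2.

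The second comparison concerns the 26G RNAs, which were far less abundant and far more unequal between the loci. Y17D7C.3 carried most of them: by mean level it was number 8 among 4119 features with any 26G signal, and it gave 74.8 to 78.5% of the 26G sum over the 6 loci in every library. Per kilobase of exon its mean 26G level was 817 normalized counts, against 59.6 at E01G4.5, 52.7 at K02E2.6, 52.2 at Y17D7B.4 and 45.8 at W04B5.2. The last 4 lay within a narrow range. T08B6.2 had 1 read in High replicate 1, 1 in High replicate 3 and 0 in the other 4 libraries, at or under the floor of 3 counts per group, so no fold is given. That floor covers counting error only. In these libraries T08B6.2 thus lacked the 26G signal that the other loci had.

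Of the 6 loci, 5 had a mean of at least 5 normalized 26G counts and were tested. By limma 0 of the 5 passed, as did 0% of the 272 features tested. None of the 5 had an unadjusted p under 0.05, which 3 of the 272 features had (1.1%), and edgeR and DESeq2 called 0 of the 5. The median log2 difference of the 5 was -0.40, beside -0.53 over all 272 features. Without Low replicate 1 these medians were -0.23 and -0.22, the latter over 251 features. With TMM scaling the median of all features was 0.03 and with equal totals per library 0.09. Under both of these scalings the signs of Y17D7C.3, W04B5.2, K02E2.6 and E01G4.5 turned from negative to positive, so no direction is given for them.

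Y17D7C.3 had 26G levels of 641, 571 and 525 normalized counts in High against 814, 631 and 730 in Low. High replicate 1 and Low replicate 2 overlapped, and the log2 difference was -0.32 ± 0.27 (SE; limma adjusted p = 0.618). From its own spread between libraries the SE was 0.13. A two-sided exact permutation test over the 3 against 3 libraries gave p = 0.2, where the smallest possible is 0.1.

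Y17D7B.4 stood at 16.5, 19.5 and 14.7 normalized counts in High against 31.8, 24.4 and 33.9 in Low, the only one of the 6 loci whose 26G groups did not overlap. Of all tested features, 10.7% had every High library below every Low library. The log2 difference was -0.79 ± 0.36 (SE; limma adjusted p = 0.518; exact permutation p = 0.1, the smallest possible). These values rest on 55 reads in High and 85 in Low. The sign stayed negative in all 17 alternative settings, from -0.92 to -0.15.

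At the other 3 loci the groups overlapped. E01G4.5 stood at 88.1, 59.5 and 56.5 normalized counts in High against 103, 76.4 and 105 in Low (-0.49 ± 0.35, SE). W04B5.2 had 37.4, 31.1 and 29.5 in High and 60.6, 32.1 and 41.3 in Low (-0.40 ± 0.38), with Low replicate 1 the highest, and its log2 difference without that library was -0.16. K02E2.6 had 72.7, 46.2 and 50.7 in High and 71.2, 43.5 and 65.6 in Low (-0.08 ± 0.38), and its sign also turned without High replicate 2 and without Low replicate 1. None of the 3 passed (limma adjusted p of 0.521, 0.619 and 0.893).

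**Figure D3:**
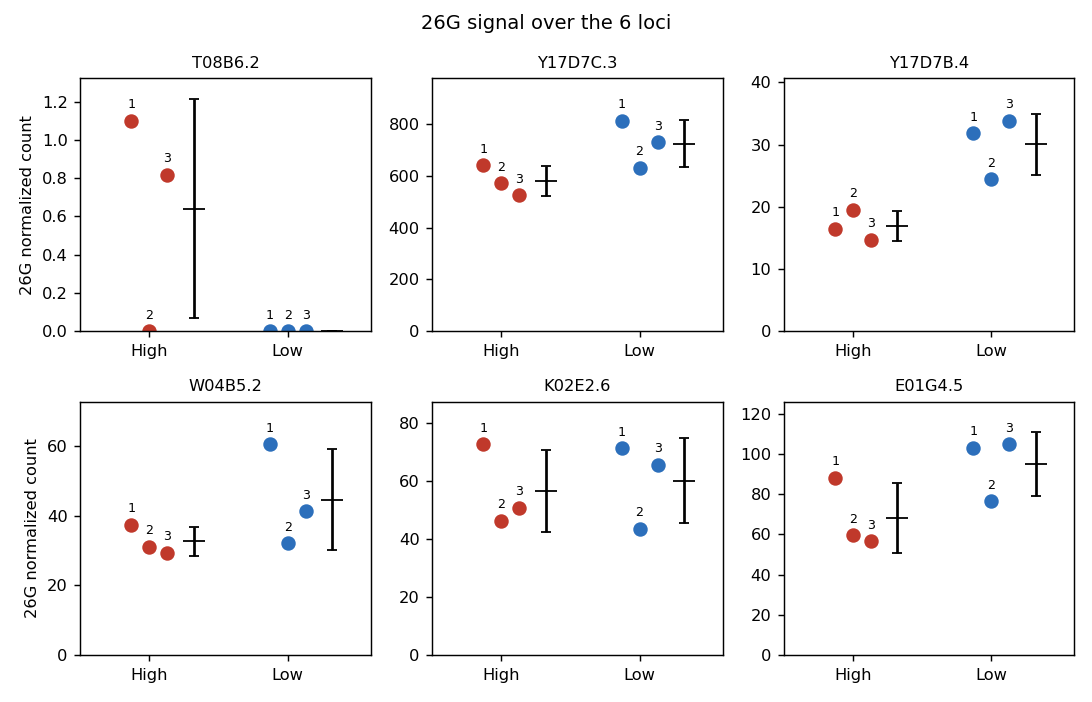
26G normalized counts (y axis, from 0, different scale in each panel) in the 3 High (red) and 3 Low (blue) libraries for each of the 6 loci, with replicate numbers beside the points and the group mean and SD as black bars. Only Y17D7B.4 shows groups that do not overlap (16.9 ± 2.43 against 30.1 ± 4.96), and T08B6.2 has at most 1 read per library.

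The 6 loci together had 857, 728 and 678 normalized 26G counts in High and 1081, 808 and 976 in Low. Their share of all 26G signal was 3.99% ± 0.293 in High and 3.36% ± 1.31 in Low (SD, n = 3), with 1.89% in Low replicate 1 and 4.41% and 3.79% in Low replicates 2 and 3. When the share was taken over protein-coding, pseudogene and lincRNA features alone, it was 12.5, 12.1 and 11.7% in High and 13.1, 13.4 and 13.1% in Low. On this basis Low replicate 1 no longer stood apart, and every High share lay below every Low share. That difference was not tested. The denominator was chosen after the composition of the 26G class had been seen.

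The third comparison sets 26G against 22G reads within each library, where the deposited size factor cancels because both classes share it. Y17D7C.3 had 33.7, 32.5 and 31.6 26G reads per 100 22G reads in High and 28.4, 25.9 and 28 in Low. It was the locus with the most 26G per 22G, and every High library lay above every Low library. A ratio with High above Low in every library was found for 5.88% of the 255 features tested in both classes. The log2 difference of the ratio was 0.25 ± 0.31 (SE; limma adjusted p = 0.820). From its own spread the SE was 0.0486, and the exact permutation test gave p = 0.1, the smallest possible. The sign of this ratio was positive under all 15 alternative settings, but its size moved with the scaling. With TMM scaling of each class the log2 difference was 0.86, beside a median of 0.71 over all tested features. With equal totals it was 0.94 beside 0.78, where the median with the deposited scaling was 0.11.

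At the other 4 tested loci the ratio was lower by several fold and the groups overlapped. It was 1.38 to 2.63 26G reads per 100 22G reads at Y17D7B.4, 2.18 to 3.29 at E01G4.5, 2.83 to 5.32 at K02E2.6 and 3.82 to 8.1 at W04B5.2. The ranges of neighbouring loci overlapped, but within each of the 6 libraries the ratio of W04B5.2 was above that of K02E2.6 and the ratio of E01G4.5 above that of Y17D7B.4. The smallest gap was in High replicate 1, with 5.35 at W04B5.2 and 5.32 at K02E2.6. The log2 differences, High minus Low, were -0.47 ± 0.29 at Y17D7B.4, -0.27 ± 0.27 at E01G4.5, 0.18 ± 0.30 at K02E2.6 and -0.10 ± 0.32 at W04B5.2 (SE). By limma 0 of the 5 passed, as did 0% of the 255 features, and 0 of the 5 had an unadjusted p under 0.05, where 11.8% of features did. The ratio of the sums over the 6 loci was 10.7, 9.83 and 9.46 in High and 11, 8.75 and 10.2 in Low. Without Y17D7C.3 it was 3.55, 2.77 and 2.77 in High and 3.82, 2.6 and 3.55 in Low. These sums overlapped between the groups in either form. Over all features the ratio was 0.844 to 1.27 in 5 libraries and 2.73 in Low replicate 1.

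**Figure D4:**
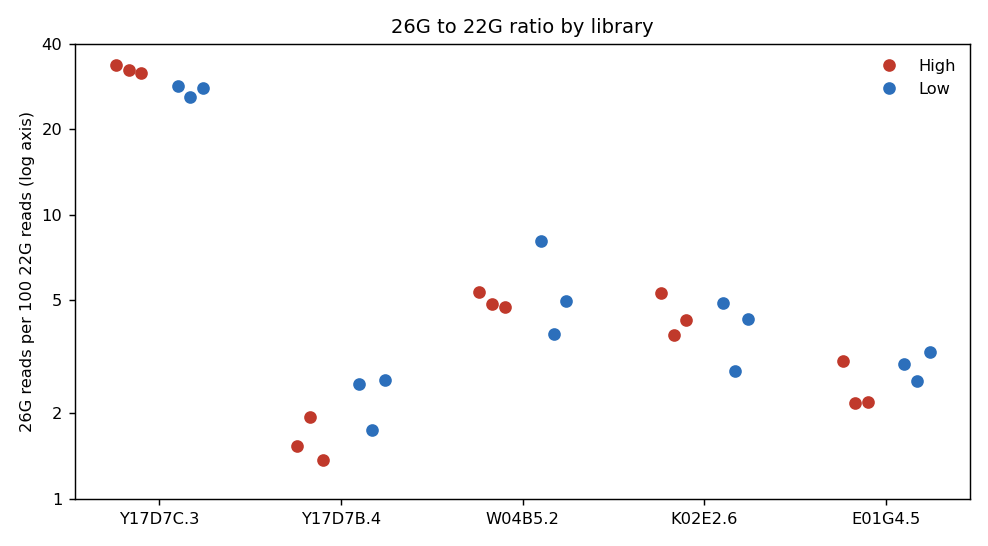
26G reads per 100 22G reads (y axis, log scale) at the 5 loci with enough 26G reads, each point 1 library, High in red and Low in blue. Y17D7C.3 lies between 25.9 and 33.7 with High above Low, and the other 4 loci lie between 1.38 and 8.1 with overlapping groups.

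Reads of the 21U class were few at these loci, at most 1.67 per 100 22G reads in any library, a value that rests on 1 read at T08B6.2. Only Y17D7C.3 and E01G4.5 reached a mean of 5 normalized counts. Y17D7C.3 had 13.2, 17.8 and 13.9 in High and 34.9, 24.4 and 20.1 in Low, and E01G4.5 had 27.5, 26.6 and 18.8 in High and 33.3, 30.6 and 29.6 in Low. At both loci every High library was below every Low library, as at 26.9% of the 592 tested features. By limma 0 of the 2 passed (adjusted p of 0.198 and 0.520), as did 0% of tested features as lower in High, while 1 of the 2 had an unadjusted p under 0.05, where 18.8% of features did as lower. edgeR and DESeq2 called 0 of the 2. The log2 differences were -0.76 ± 0.32 and -0.36 ± 0.30 (SE), beside a median of -0.38 over all tested features, and with TMM scaling that of E01G4.5 was 0.02. Without Low replicate 1 the differences were -0.55 at Y17D7C.3 and -0.31 at E01G4.5, beside a median of -0.28 over 580 features. Neither locus passed in that run (limma adjusted p of 0.316 and 0.568), while 28 of the 580 features passed as lower and 5 as higher.

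A wider list of 30 genes, which includes the 6 loci, was written from general knowledge of ERGO-1 targets and was not checked against a published list. Of 27 tested members, 6 were lower in High and 0 higher by limma, and 5 of these 6 belong to the loci above. Over all tested features 2.66% were lower and 5.64% higher. Among the other 21 tested genes 1 was lower, a share near that background. This was F39F10.4, at 133, 125 and 99.8 normalized counts in High against 203, 158 and 175 in Low. All its High libraries were below its Low libraries (-0.58 ± 0.14, SE; limma adjusted p = 0.0206), and 5 of 16 alternative settings ended its call. These were limma with no variance trend (adjusted p = 0.125) and the removal of High replicate 2 (0.0502), High replicate 3 (0.081), Low replicate 1 (0.0629), and Low replicate 3 (0.0585). The median log2 difference of those 21 genes was -0.02, beside 0.01 over all 9402 features. Of the 27 tested members, 9 had every High library below every Low library, the 6 loci included, and 1 had the reverse. High lay below Low in this way at 9.97% of all tested features. The share of all features with the reverse is not given, so the counts in the 2 directions are not compared. Y43F8B.9 was among the 9 (-0.39 ± 0.13, SE, limma adjusted p = 0.113), as was Y37E11B.2 (-0.09 ± 0.06, adjusted p = 0.492 by limma). F55A4.4 was the reverse case (0.19 ± 0.14, adjusted p = 0.583 by limma). The count of 6 in the list became 2 without High replicate 2, 3 without High replicate 3, 3 without Low replicate 3 and 2 in limma without a variance trend.

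E01G4.7 and W04B5.1 of the list had 22G groups that overlapped. The pseudogene E01G4.7, the next annotated gene after E01G4.5, had 2950, 2712 and 2734 normalized 22G counts in High and 2782, 2936 and 2785 in Low. Its 22G groups overlapped, and High minus Low was -0.02 ± 0.06 on the log2 scale (SE; adjusted p = 0.920 by limma). Its 26G counts were 369, 344 and 307 in High and 568, 393 and 530 in Low (-0.53 ± 0.29, SE; limma adjusted p = 0.518), with every High library below every Low library. W04B5.1, a pseudogene, had 2295 ± 120.2 22G counts in High and 2270 ± 305 in Low (SD). Whether E01G4.5 differs from E01G4.7, or W04B5.2 from W04B5.1, in its change was not tested.

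In the 26G class 20 genes of the list were tested and 0 passed by limma, 0 by edgeR and 0 by DESeq2, and 0 had an unadjusted p under 0.05. The 6 most abundant were Y17D7C.3, E01G4.7, C40A11.10, F39E9.7, Y37E11B.2 and E01G4.5. C40A11.10 matched a miRNA gene by locus tag only, not by gene name, so its gene type is uncertain. It carried more 26G than 22G signal, with 346 26G reads per 100 22G reads over all libraries. Its normalized 26G counts were 173, 145 and 131 in High and 258, 129 and 192 in Low. Y37E11B.2 had 75.4 ± 6.49 in High and 106 ± 28.6 in Low, and F39E9.7 had 91.3 ± 15.7 and 93.9 ± 18.2 (SD, n = 3). The whole list took 9.98, 10.1 and 9 percent of 26G signal in High and 4.61, 10.1 and 9.3 percent in Low replicates 1 to 3. Of 255 features tested in both classes, 52.2% had a lower 26G to 22G ratio than Y17D7C.3, and the other 4 loci lay above 12.16 to 21.57% of features.

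**Figure D5:**
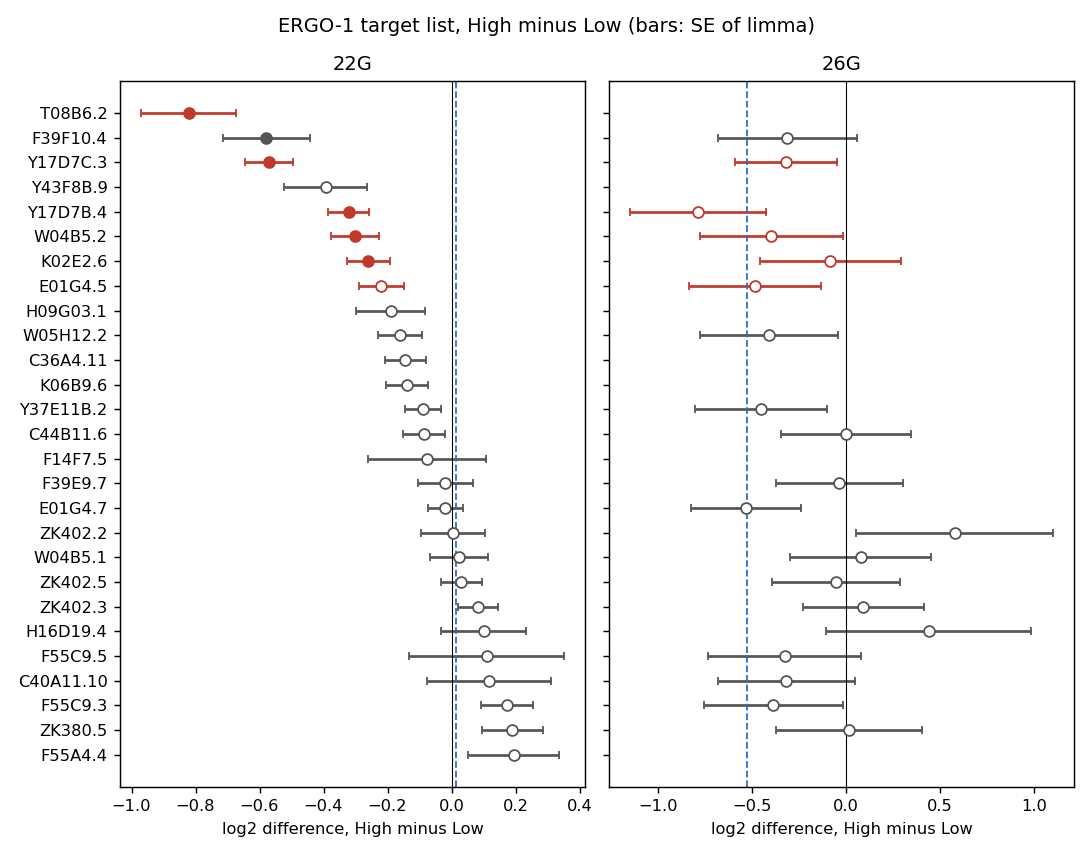
log2 difference, High minus Low (x axis), with the SE of limma for the tested genes of the ERGO-1 target list, 22G on the left and 26G on the right; red marks the 6 loci, filled points passed an adjusted p under 0.05, and the dashed line is the median of all tested features (0.01 and -0.53, the latter -0.22 without Low replicate 1). On the left 6 filled points lie below 0, and on the right no point is filled.

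Genes of the ERGO-1 pathway, from those that make 26G RNAs to nrde-3, whose product binds 22G RNAs, also carried 22G signal. Of 12 such genes tested in the 22G class, 0 passed by limma, edgeR or DESeq2, and 0 had an unadjusted p under 0.05. With 2.66% of all features lower and 5.64% higher, a count of 0 in 12 genes is near the background. The most abundant, the helicase gene eri-6, had 5759 ± 294.5 normalized counts in High against 6165 ± 188.4 in Low, and eri-3 had 345 ± 23.6 and 322 ± 36.4 (SD). Of the 12 genes, only eri-6 had every High library below every Low library (limma adjusted p = 0.413). This was so for 9.97% of all tested features. ergo-1 itself had 111, 104 and 106 in High and 139, 99.3 and 128 in Low, which overlapped (limma adjusted p = 0.606). As targets of 26G RNAs these 12 genes held 24 reads in all 6 libraries together. Of a list of 10 genes for the sperm branch of the 26G pathway, which uses ALG-3 and ALG-4, 7 were in the tables and held 12 22G and 6 26G reads over all libraries. None of the 7 could be tested.

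The nearest annotated genes of the 6 loci held from no small RNA signal to levels like those of the loci. On both sides of T08B6.2 the neighbours had 0 reads in every class, and the neighbours of Y17D7C.3 had at most 2.08 normalized 22G counts on average and no 26G read. K02E2.11 is a protein-coding gene on the other strand beside K02E2.6. It had 295, 279 and 300 normalized 22G counts in High and 362.2, 403.4 and 326 in Low (-0.32 ± 0.09, SE; limma adjusted p = 0.0657). It also carried 71.7 ± 11 26G counts in High and 73.7 ± 7.95 in Low (SD). The pseudogene Y17D7B.7, beside Y17D7B.4, had 22G counts of 278 ± 32.5 in High and 231 ± 18.1 in Low, with 1 26G read in all (log2 difference 0.26 ± 0.11, SE; adjusted p = 0.207 by limma). The protein-coding gene E01G4.3, beside E01G4.5 on the other strand, had 173, 161 and 232 22G counts in High and 130, 147 and 163 in Low, with no 26G read. Its log2 difference was 0.35 ± 0.14 (SE; adjusted p = 0.226 by limma), of opposite sign to that of K02E2.11. W04B5.3, beside W04B5.2, had 35.5 ± 12.6 22G counts in High and 34.2 ± 11.4 in Low (SD) and no 26G read. E01G4.7 is described above, and W04B5.8, next to W04B5.2, was not found among the features listed.

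In 26G to 22G ratio, the 5 features nearest to the median of the tested loci were ZK402.3, linc-8, W05H12.2, linc-11 and F15B9.14, at root mean square distances of 0.27 to 0.47 on the log2 scale over 6 libraries. ZK402.3 and W05H12.2 are on the target list, and linc-8 and linc-11 are annotated as long non-coding RNAs. F15B9.14 reached a mean of 5 normalized 26G counts only through Low replicate 1, with 19.7 there and 2.2 to 3.55 in the other libraries. Its ratio was higher in every High library than in every Low library (4.84 ± 0.98 against 3.02 ± 0.79, SD). In 22G profile, the 5 features of at least 100 mean counts with the highest Pearson r to the mean of the 6 loci were F08G5.3 (0.998), Y73F8A.33 (0.996), trxr-1 (0.994), C16H3.3 (0.991) and gpx-8 (0.991), out of 3186. These r values describe 6 libraries in 2 groups. All 5 features were lower in High, which follows from how they were picked. trxr-1, a thioredoxin reductase gene, had 112 ± 6.33 normalized 22G counts in High and 147 ± 1.45 in Low, and gpx-8, a glutathione peroxidase gene, had 507 ± 61.9 and 932 ± 69.2 (SD). Unlike 5 of the 6 loci, these 5 features had at most 1 26G read in any library. Each of the 6 loci had an r of 0.807 (E01G4.5) to 0.976 (T08B6.2) with the mean of the other 5.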

How the data were processed

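Small RNA was sequenced from 3 High and 3 Low libraries, built from 1 µg of total RNA after phosphatase and kinase treatment, with inserts of 18 to 36 bp and 50-nt reads, per the labels' protocols. Per the submitters' processing notes, the tools included DESeq2 1.8.1, featureCounts 1.4.6, Bowtie 1.1.1 and cutadapt 1.7.1, with no settings stated. The table the authors deposited for a class gives the signal of every feature in every library, under the name normalized counts. In each library 100% of nonzero values were whole multiples of 1 step (within 0.01 reads), one step serving all 3 classes, and read counts were recovered from it. The implied size factors lay between 0.660 and 1.31. The counting of strand and of multiply mapped reads is unknown and could move any value.

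Features with a mean of at least 5 were tested for High minus Low by limma-trend (limma 3.58.1 in R 4.3.3) on log2-transformed values after adding a pseudocount of 1. P-values were two-sided and adjusted by the Benjamini-Hochberg method over the whole class, with a threshold of 0.05. The same fit was made on the log2 26G minus log2 22G difference. Fold changes are on the log2(value + 1) scale and understate changes of low features. Reported errors are SD for means and the SE of limma for differences. In the main fit the variance of each feature is drawn toward a trend over all features. The limma SE and p-values therefore rest only partly on the spread of that feature between these libraries. edgeR 4.0.16 and DESeq2 1.42.0 on recovered reads were alternatives, and scripts were tested on simulated data. With 3 against 3 libraries an exact permutation test cannot give a two-sided p below 0.1.

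The members, lists and tests were chosen with earlier results of these data known. Named are the 6 loci; the target list's calls and its 6 most abundant by 26G; calls and the 2 most abundant of the factor and sperm lists; neighbours; and the 5 nearest features by ratio and by 22G profile. W04B5.1 and ergo-1 were chosen after their values were seen. Exon lengths, gene types and neighbours come from the Ensembl and RefSeq annotations of WBcel235. These matched 99% of the 46761 features by name or locus tag.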

Additional observations from a re-analysis of the deposited data

How the results depend on the processing

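The 22G count of called features stayed within 1.5 times of 780 in every alternative run, from 524 without a variance trend to 897 without a filter, and from 634 to 797 with 1 library left out. In the 26G class the count of 0 became 1 without Low replicate 1 and was 0 when another library was left out. In the 21U class the count of 1 became 3 with TMM scaling, 28 without a filter, 2 with a minimum mean of 20, 0 with a replicate block, and 0 to 53 with 1 library left out. For the ratio, the count of 0 became 1 with TMM scaling and 46 without a filter, and stayed 0 with any 1 library left out. The cause was not tested.

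The replicate block gave 782 calls in the 22G class. The correlation of same-numbered libraries' deviations was 0.0343, 0.0463 and 0.0196 there, so the numbers are not taken to pair the samples, and not every library correlated best with its own number. TMM scaling and equal totals reversed signs that had not passed any test. With TMM scaling and with equal totals, the 26G log2 differences were 0.29 and 0.35 at Y17D7C.3, 0.20 and 0.25 at W04B5.2, 0.52 and 0.57 at K02E2.6, and 0.12 and 0.17 at E01G4.5. The 21U difference of E01G4.5 was 0.018 with TMM scaling. The ratio differences were 0.12 and 0.19 at Y17D7B.4, 0.50 and 0.57 at W04B5.2, and 0.34 and 0.41 at E01G4.5, in the same order. With 26G scaled over protein-coding, pseudogene and lincRNA features, chosen after seeing the data, the 26G difference of K02E2.6 was 0.13 and the ratio difference of W04B5.2 was 0.12. Leaving out 1 library at a time, the 26G difference of K02E2.6 ranged from -0.297 to 0.051, above 0 when High replicate 2 (0.045) or Low replicate 1 was dropped. In the same way the ratio difference of W04B5.2 ranged from -0.336 to 0.195, above 0 when Low replicate 1 was dropped, and that of K02E2.6 from -0.054 to 0.336, below 0 when Low replicate 2 was dropped. Of 304 alternative values for the loci and F39F10.4, 262 kept their sign and side of the threshold, 19 lost a call, 2 gained one and 21 reversed. These values belong to 6 results that were called in the main test and 13 that were not. Only the 6 calls, with 16 alternatives each, could lose a call, so all 19 losses fell among them. 26G depth, 140 reads at Y17D7B.4 over all libraries, limits what could be seen there.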
